A study of Mus musculus with 12 samples.

Results

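The protein-coding genes of mouse chromosome 19 were examined in Sol8 cells with and without an intact Gne gene. A gene was a member if the deposited table placed it on chromosome 19, named it protein coding and gave it a mean of at least 25 raw counts over the 12 RNA-seq libraries, and 422 genes did so of 54838 rows listed. The table has counts for 720 protein-coding rows of this chromosome, of which 115 are at 0 in every library and another 183 fall below the minimum. The first member starts at position 3260924 and the last at 61053840 of chromosome 19 (GRCm38). The mean that chose the members runs over both genotypes, and 409 members reached 25 in the WT libraries and in the Gne KO libraries taken alone, while 6 did so only in WT and 7 only in Gne KO. Of those named later, Best1, Flrt1, Mamdc2 and Kank1 reached it only in WT and Sorcs1, Gstp2 and Snx32 only in Gne KO, so each entered through the genotype in which it is higher and its change is given as a description. The chromosome was taken up with earlier results of these data known, so the shift of the whole chromosome is given as a description without a test.

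Sol8 is a mouse skeletal myoblast line whose cells divide in rich serum and fuse into myotubes in low serum. The 4 groups of 3 libraries each are WT proliferative and Gne KO proliferative cells, kept in fetal calf serum, and WT differentiated and Gne KO differentiated cells, kept in horse serum. The Gne KO libraries are all from 1 clone made with Cas9 guides against an early exon of Gne, so an effect of the Gne deletion and any other property of that clone cannot be told apart. By their labels the 3 libraries of a group are biological replicates, all of 1 line, and p-values measure only the spread between these libraries. Gne, on chromosome 4, encodes the enzyme that starts sialic acid synthesis. Its normalized count was 255 to 278 in WT and 232 to 344 in Gne KO proliferative libraries, and 264 to 285 in WT and 205 to 212 in Gne KO differentiated libraries. The deletion is short, so a count over the whole gene does not check it.

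Chromosome 19 is a small and gene-rich mouse autosome. Genes on it take part in unrelated processes, among them glycogen breakdown in muscle, fatty acid desaturation, mitochondrial respiration and NF-kB signalling, and they are not known to be controlled as a set. RNA from most genes of a chromosome moving in 1 direction is a pattern known from cultured lines that carry an extra or a missing chromosome, while changes of a single pathway touch genes spread over many chromosomes. The tables hold RNA counts and no DNA measurement. The study describes the parent Sol8 line as diploid with a normal karyotype, which was assessed with chromosome 4 in view, and the copy number of chromosome 19 in the clone was not tested.

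Library totals ran from 22612038 to 29389759 counts. Markers of skeletal muscle cells were present in every group, and 5 of 5 tested myoblast markers averaged 100 or more normalized counts. The summed level of 6 myotube markers was 34283 to 42522 in WT differentiated libraries and 10011 to 36150 in WT proliferative libraries, against 521 to 1220 in Gne KO proliferative and 690 to 1255 in Gne KO differentiated libraries, so the Gne KO libraries labelled differentiated hold little myotube RNA. The highest WT proliferative value belongs to replicate 1, which stood apart from replicates 2 and 3 in these genes. In bulk RNA, fewer cells of a type and less RNA per cell cannot be told apart. The summed level of 3 fibroblast markers was 93325 to 135329 in WT proliferative libraries and 32049 to 47639 in the other 3 groups. Most of this sum was Col1a1, and the 3 markers did not move together. Gne KO minus WT log2 fold changes in proliferative and differentiated cells were −1.86 and −0.37 for Col1a1 and 1.63 and 0.91 for Pdgfra. For Dcn they were −0.11, which did not pass, and 2.03. Markers of endothelium, epithelium, adipocytes and immune cells had means under 100 normalized counts in all genes tested.

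Cnih2, Pygm, Rorb, Pgm5 and Pgam1 were the 5 members that passed the test and the effect filter in both states, and the 250 bases before the RefSeq start of each (GRCm38.p6) are shown because 2 of the 5 are genes of muscle glycogen and cell attachment and the others are not muscle genes. Capitals mark CANNTG, the E-box that myogenic factors such as MyoD bind, where N is any base.
Pygm (chr19:6384158-6384407, plus strand): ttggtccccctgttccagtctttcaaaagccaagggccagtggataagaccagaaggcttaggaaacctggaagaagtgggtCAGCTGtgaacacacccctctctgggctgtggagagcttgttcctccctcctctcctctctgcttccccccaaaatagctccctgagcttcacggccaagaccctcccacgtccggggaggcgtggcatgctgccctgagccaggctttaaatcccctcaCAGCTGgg
Pgm5 (chr19:24861843-24862092, minus strand): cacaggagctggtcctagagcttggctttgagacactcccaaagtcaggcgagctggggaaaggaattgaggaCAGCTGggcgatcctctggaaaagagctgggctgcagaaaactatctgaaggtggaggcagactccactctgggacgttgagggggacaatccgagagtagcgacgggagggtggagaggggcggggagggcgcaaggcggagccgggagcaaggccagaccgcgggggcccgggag
Rorb (chr19:19111197-19111446, minus strand): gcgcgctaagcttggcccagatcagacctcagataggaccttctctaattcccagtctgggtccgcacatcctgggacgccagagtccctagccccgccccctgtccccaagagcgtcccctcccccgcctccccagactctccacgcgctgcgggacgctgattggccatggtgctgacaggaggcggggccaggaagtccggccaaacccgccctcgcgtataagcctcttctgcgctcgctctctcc
Pgam1 (chr19:41911621-41911870, plus strand): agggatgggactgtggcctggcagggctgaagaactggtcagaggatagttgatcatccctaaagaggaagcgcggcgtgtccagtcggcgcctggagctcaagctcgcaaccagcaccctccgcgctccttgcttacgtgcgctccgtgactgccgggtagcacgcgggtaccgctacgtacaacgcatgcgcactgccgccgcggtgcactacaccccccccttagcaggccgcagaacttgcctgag
Cnih2 (chr19:5098522-5098771, minus strand): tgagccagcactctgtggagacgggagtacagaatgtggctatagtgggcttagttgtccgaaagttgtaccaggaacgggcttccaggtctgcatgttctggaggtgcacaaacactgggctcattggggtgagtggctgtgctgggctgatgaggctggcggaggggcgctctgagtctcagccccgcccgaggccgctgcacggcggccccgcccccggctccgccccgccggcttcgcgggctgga
CANNTG reads the same on both strands as a pattern and includes CAGCTG. Pygm held 2 matches and Pgm5 held 1, all of them CAGCTG, and the windows of Rorb, Pgam1 and Cnih2 held none. Among 32851 promoters in the RefSeq table, 66.2% of the 250-base windows held CANNTG and 13.0% held CAGCTG. Promoter windows were found for 347 members, and 56.5% of these held CANNTG against 55.3% of 8470 windows of genes on other autosomes. The median GC content of the member windows was 60.4%, the same as on the other autosomes. A match is a description of the letters only.

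Most members were higher in Gne KO than in WT proliferative cells. The median log2 fold change over the 422 members was 0.61, against 0.17 over 10652 protein-coding genes of chromosomes 1 to 18 with the same count minimum, a difference of 0.44 on the log2 scale or 1.35-fold. At an adjusted p under 0.05 over all 20415 genes tested (limma), 285 members were higher and 76 lower, and 61 did not pass. The higher share of the members, 67.5%, compares with 44.5% of the genes on other autosomes and 28.2% of all genes tested, and the lower share, 18%, with 29.3% and 27.2%. All 3 Gne KO libraries lay above all 3 WT libraries for 283 members (67.1%) and below for 69 (16.4%), against 44.9% and 29.2% on the other autosomes. The quartiles of the members' log2 fold changes were 0.03 and 0.99, and those of the other autosomes −0.42 and 0.56. Without WT proliferative replicate 1 the difference in medians was 0.43, with 271 members higher and 75 lower.

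In differentiated cells the same direction held at a smaller size. The median log2 fold change of the members was 0.19 against 0.01 on the other autosomes, a difference of 0.18 or 1.14-fold. There 142 members were higher and 41 lower, or 33.6% and 9.72%, where the other autosomes had 15.9% and 15.3% and all genes tested 11.1% and 12.5%. Non-overlap was more frequent than passing, with 245 members (58.1%) above and 73 (17.3%) below in all libraries, against 34.4% and 32.5% on the other autosomes. A fit of only the 6 differentiated libraries passed 232 members higher and 64 lower, more than 1.5 times as many. Shares on the other autosomes rose in that fit too, to 30.9% higher and 28.2% lower. Of the members, 115 were higher in both states, 18 were lower in both, 29 passed in opposite directions and 40 passed in neither. The same counts were not made for the other autosomes, so these do not show a trait of this chromosome.

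No other autosome had a median as high. In proliferative cells the medians of chromosomes 1 to 18 ran from −0.20 (chromosome 13) to 0.37 (chromosome 7), and in differentiated cells from −0.06 (chromosome 13) to 0.08 (chromosome 7), below the 0.61 and 0.19 of chromosome 19. The same was found between the WT states, where the members had a median log2 difference of 0.13 (differentiated minus proliferative) and the other autosomes had medians of −0.10 to 0.01. This second comparison does not involve the clone, but shares its WT libraries with the comparisons above.

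**Figure D1:**
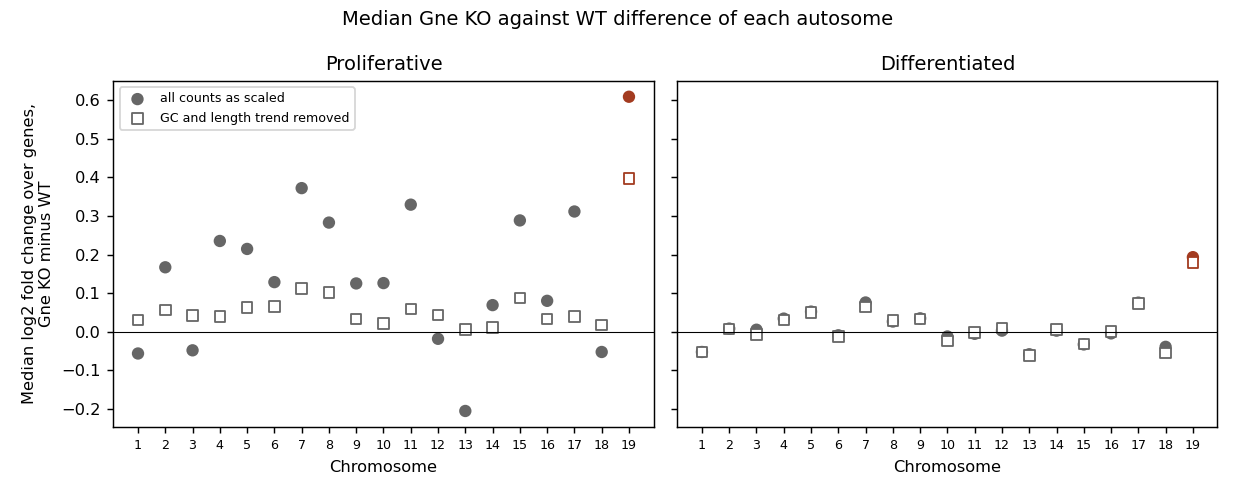
Median Gne KO against WT log2 fold change (y axis) over the protein-coding genes of each autosome with a mean of at least 25 raw counts (x axis), in proliferative (left) and differentiated (right) cells. Filled circles are scaled counts and open squares have the trend in GC content and length removed; chromosome 19, in red, lies at 0.61 and 0.19 as scaled and at 0.40 and 0.18 with the trend removed.

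Seen library by library and as scaled, chromosome 19 fell on separate levels. Each library was set against the mean of the WT proliferative libraries, and the median over the other autosomes was subtracted. The WT proliferative libraries had values of −0.03, 0.01 and 0.02 on the log2 scale. The WT differentiated libraries had 0.17, 0.18 and 0.17, the Gne KO proliferative libraries 0.37, 0.44 and 0.49, and the Gne KO differentiated libraries 0.36, 0.35 and 0.36. Means were 0.17 ± 0.01 (SD, n = 3), 0.43 ± 0.06 and 0.35 ± 0.01 for the last 3 groups, and all 6 Gne KO libraries lay above all 6 WT libraries. The difference between genotypes was smaller in the differentiated state while WT differentiated libraries were higher than WT proliferative ones by 0.17, and the means of both Gne KO groups lay closer to each other than to either WT group.

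The shares of raw counts, which need no scaling between libraries, were ordered alike. Members took 4.16 to 4.31% of all counts in WT proliferative, 4.68 to 4.86% in WT differentiated, 5.19 to 5.48% in Gne KO proliferative and 5.10 to 5.19% in Gne KO differentiated libraries. The ranges of the genotypes did not overlap.

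**Figure D2:**
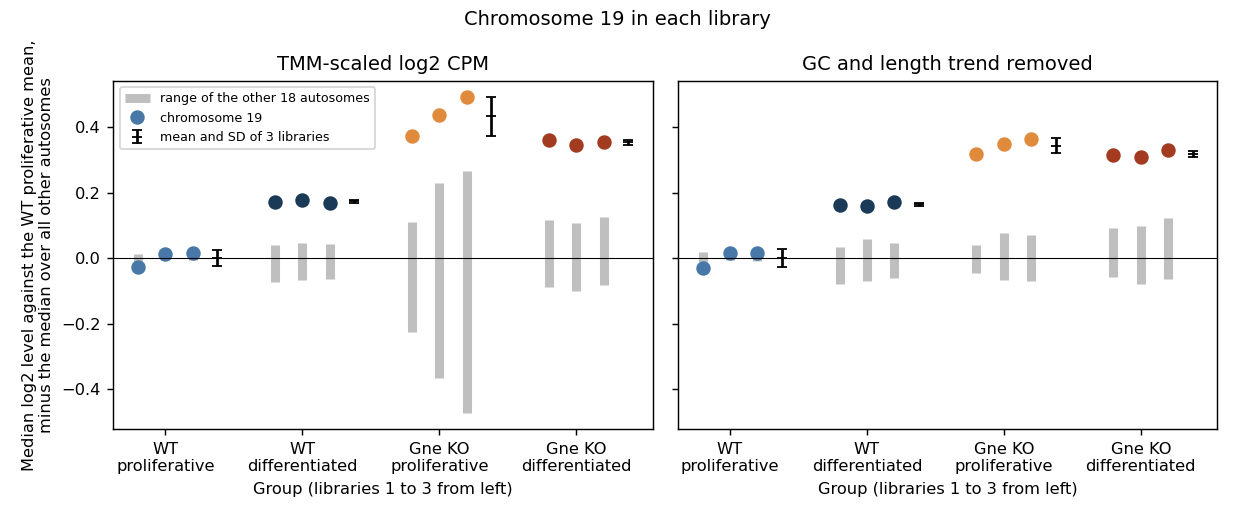
Median log2 level of the chromosome 19 members in each library against the WT proliferative mean, minus the median over all other autosomes (y axis), by group (x axis), as scaled (left) and with the trend in GC content and length removed (right). Coloured points are libraries 1 to 3, grey bars the range of the other 18 autosomes in the same library, and black bars the mean and SD of 3 libraries; Gne KO points lie at 0.35 to 0.49 as scaled and at 0.31 to 0.36 with the trend removed.

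Base composition moved with the genotype in proliferative cells, to a degree that differed between the Gne KO libraries. Across genes, the log2 fold change in proliferative cells rose with the GC content of the longest transcript, with a Spearman coefficient of 0.52 over 420 members and 0.55 over 10652 genes of other autosomes, whose points share the same 6 libraries and are not replicates. In differentiated cells these were 0.16 and 0.13. Members had a median GC content of 51.7% against 49.7%, which put chromosome 19 at rank 6 of 19 autosomes. The members that were higher in proliferative Gne KO cells had a median of 53.8% and the lower ones 43.2%. By the library measure used above, chromosome 13, with the lowest median GC content (45.9%), had −0.23, −0.37 and −0.47 in Gne KO proliferative libraries 1 to 3. Chromosome 7, with the highest (52.8%), had 0.11, 0.23 and 0.27. The trend was thus weakest in replicate 1.

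Members lay above other genes of like composition. For transcripts under 45% GC, 79 members had a median of −0.40 in proliferative cells and 2732 other genes −0.59. From 45 to 50% the medians were 0.45 and 0.07, from 50 to 55% they were 0.84 and 0.41, and from 55% upward they were 0.89 and 0.54. The difference was thus 0.19, 0.38, 0.43 and 0.35 in the 4 classes. In differentiated cells it was 0.14, 0.15, 0.15 and 0.19.

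**Figure D3:**
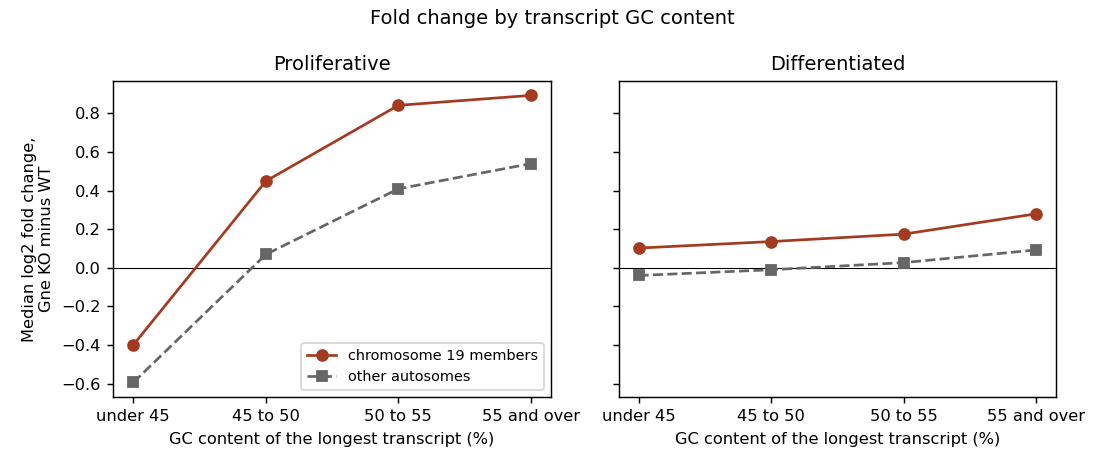
Median Gne KO against WT log2 fold change (y axis) in 4 classes of transcript GC content (x axis) for chromosome 19 members (red circles) and genes of the other autosomes (grey squares), in proliferative (left) and differentiated (right) cells. Members lie above the other genes in all 4 classes, by 0.19 to 0.43 in proliferative and 0.14 to 0.19 in differentiated cells.

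When a smooth trend in GC content and transcript length was removed from each library, the median of the members was 0.40 in proliferative and 0.18 in differentiated cells, and that of the other autosomes 0.06 and 0.01. The difference became 0.34 (1.27-fold) and 0.17 (1.12-fold). The other 18 autosomes then ran from 0.01 to 0.11 in proliferative and from −0.06 to 0.07 in differentiated cells. In proliferative cells 269 members were higher and 62 lower, against 34.5% and 27.4% on the other autosomes, and in differentiated cells 165 were higher and 48 lower, against 19% and 19%. Of the 285 higher members 241 were also higher with the trend removed, and of the 76 lower members 47 were also lower. Another 10 of the 76 became higher. The library values became −0.03 to 0.02 in WT proliferative, 0.16 to 0.17 in WT differentiated, 0.32 to 0.36 in Gne KO proliferative and 0.31 to 0.33 in Gne KO differentiated cells. The ranges of both Gne KO groups then overlapped, and both lay above those of WT.

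Along the chromosome, members were grouped by gene start into 13 windows of 5 Mb, which held 9 to 116 members. In proliferative cells the medians were highest at 0 to 5 Mb (0.87, 51 members), 5 to 10 Mb (0.87, 116 members) and 45 to 50 Mb (0.83, 45 members). As scaled, no window of the other autosomes, of 429 with at least 5 genes, had a higher median than these. With the trend removed, 8, 7 and 5 of the 429 had higher medians than these, in the order given. As scaled, none was higher than the window at 10 to 15 Mb either. The window at 10 to 15 Mb had 0.66 and that at 40 to 45 Mb had 0.46. The remaining windows were lower, with 0.36 at 15 to 20 Mb, 0.18 at 25 to 30 Mb, 0.26 at 30 to 35 Mb, 0.27 at 50 to 55 Mb and 0.25 at 55 to 60 Mb, and 3 had negative medians of −0.37 (20 to 25 Mb), −0.23 (35 to 40 Mb) and −0.13 (60 to 65 Mb). In all, 10 of 13 windows exceeded the median of the other autosomes, as did 34.5% of the other autosomes' own windows. Both windows at the start of the chromosome held 39.6% of all members, so the median of the whole chromosome leans on them.

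Window medians in proliferative cells tended to rise with GC content, with exceptions. The Spearman coefficient was 0.82 over the 13 windows, which share the same libraries. The windows at 0 to 10 Mb had median GC contents of 55.8% and that at 45 to 50 Mb had 53.0%, while the 3 windows with negative medians had 46.5, 44.5 and 44.5%. Of the 7 windows under 47% GC, however, 4 had positive medians, among them 30 to 35 Mb, which had the lowest GC content (43.7%) and a median of 0.26, and the lowest median (−0.37) belonged to a window with 46.5%. With the trend removed, all 13 windows had positive medians in proliferative cells. Of these, 12 exceeded the median of the other autosomes (0.06), as did 48% of the other autosomes' own windows, and the window at 20 to 25 Mb did not. The 95th percentile of the other autosomes' windows (0.30) was exceeded by 10. The window medians were 0.44, 0.46, 0.31, 0.39, 0.06, 0.45, 0.54, 0.14, 0.25, 0.49, 0.49, 0.35 and 0.37 from the start of the chromosome to its end. The windows at 20 to 25 Mb and 35 to 40 Mb stayed the lowest. Neighbouring members resembled each other little, with a Spearman coefficient of 0.18 over 421 neighbour pairs as scaled and −0.05 with the trend removed.

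In differentiated cells 12 of 13 windows exceeded the median of the other autosomes, where 45.7% of the other autosomes' windows did. The medians were 0.30 and 0.27 at 0 to 5 and 5 to 10 Mb, 0.25 at 25 to 30 Mb and 0.20 at 15 to 20 Mb. The lowest were −0.01 at 35 to 40 Mb and 0.03 at 50 to 55 Mb. From 50 Mb onward the medians were 0.03, 0.06 and 0.07, and with the trend removed 0.01, 0.04 and 0.07, beside 0.49, 0.35 and 0.37 in proliferative cells.

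**Figure D4:**
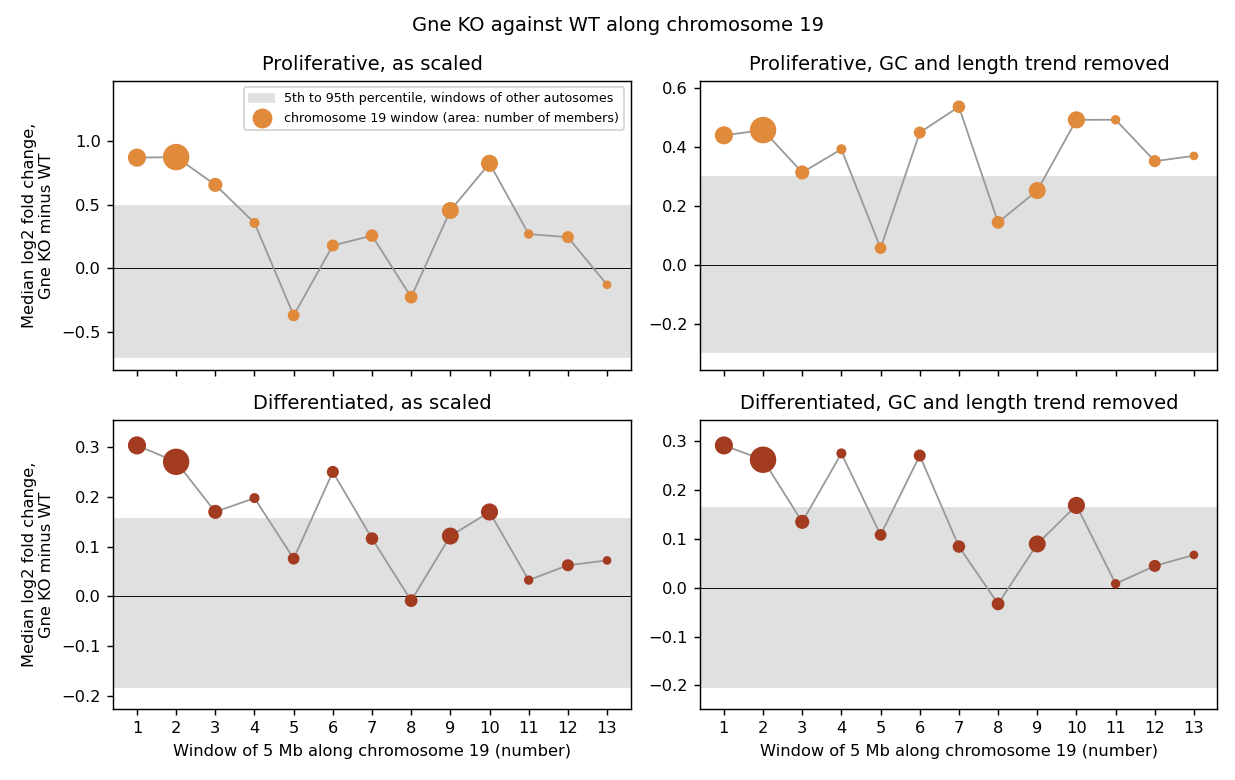
Median Gne KO against WT log2 fold change (y axis) in 13 successive windows of 5 Mb along chromosome 19 (x axis, by number), in proliferative (top) and differentiated (bottom) cells, as scaled (left) and with the trend in GC content and length removed (right). Point area is proportional to the number of members, and the grey band spans the 5th to 95th percentile of 429 windows of the other autosomes; with the trend removed 10 of 13 windows lie above the band in proliferative and 5 of 13 in differentiated cells.

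The genotype effect differed between the states for 280 members (interaction, adjusted p under 0.05, limma), or 66.4%, against 57.7% of the genes on other autosomes and 41.9% of all genes tested. It was more negative in differentiated cells for 212 of these and more positive for 68, or 50.2% and 16.1% of members, against 34.4% and 23.2% on the other autosomes and 22.2% and 19.7% of all genes tested. With scaling by library size alone the split was 157 to 85, and on the other autosomes the direction turned, with 20.7% more negative and 30.9% more positive. The effect filter, which asks for a log2 fold change above 0.9 plus a term that falls with the mean count, called 75 members in proliferative cells, 59 higher and 16 lower (17.8%, against 12.4% on the other autosomes and 9.25% of all genes tested). By direction, 14% of members were called higher and 3.79% lower, against 3.54% and 8.88% on the other autosomes and 2.38% and 6.88% of all genes tested. In differentiated cells it called 18, of which 7 were higher and 11 lower (4.27%, against 4% and 3%). These were 1.66% and 2.61% of members, against 0.77% and 3.23% on the other autosomes and 0.519% and 2.48% of all genes tested.

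The lists of genes by role that follow are to be read against the shares of all members, 67.5% higher and 18% lower in proliferative and 33.6% and 9.72% in differentiated cells, and those of all genes tested, 28.2% and 27.2%, then 11.1% and 12.5%. With the trend removed, 63.7% of members were higher and 14.7% lower in proliferative cells. Of the 285 higher members, 176 had a log2 fold change more than 1.5 times smaller with the trend removed, and that value is given beside many of the genes named.

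Muscle genes of the chromosome went against its shift in differentiated cells. Of 16 members in a list of muscle genes, none was higher and 12 were lower in differentiated Gne KO cells, with a median of −0.60 against 0.01 on the other autosomes, and in proliferative cells 9 were higher and 6 lower (56.2% and 37.5%, against 67.5% and 18% of members). The 12 lower in differentiated cells were 75% of the list, against 9.72% of all members and 12.5% of all genes tested. The summed myotube markers given above moved with the median of this list in differentiated cells only. In proliferative Gne KO cells the markers were lower as well, while the list had a median of 0.45 and was split. Its 6 lower members there included Pygm, Actn3 and Nrap, which fell with the markers in both states. Its 9 higher members there included Cfl1, Ablim1, Pdlim1 and Myof. The 6 markers lie on chromosomes 1, 2, 7, 8 and 11 and so are not in the list. How far the list follows them was not tested. Pygm encodes the glycogen phosphorylase of muscle, which releases glucose phosphate from glycogen. Its normalized counts were 329, 118 and 137 in WT and 33.6, 42.8 and 35.5 in Gne KO proliferative libraries, and 1042, 1142 and 843 in WT and 162, 132 and 181 in Gne KO differentiated libraries. The groups did not overlap in either state, WT proliferative replicate 1 was the highest of its group, and the log2 fold changes were −2.28 ± 0.42 (SE, n = 3 per group, adjusted p = 0.000245, limma) and −2.66 ± 0.25 (adjusted p = 1.37e-06).

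Pgm5 encodes a protein related to phosphoglucomutase that sits at cell-matrix attachment sites of muscle. It had 156, 67.7 and 60.5 in WT and 20.7, 24.3 and 22.6 in Gne KO proliferative libraries. In differentiated libraries WT had 1079, 1128 and 919.9 and Gne KO had 102, 85.4 and 95.7. WT differentiated libraries were the highest of the 4 groups by a wide margin. The log2 fold changes were −1.97 ± 0.38 and −3.45 ± 0.21, and their difference passed the interaction test.

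Actn3, the alpha-actinin of fast fibres, fell by 1.00 on the log2 scale in proliferative and fell by 2.34 in differentiated Gne KO cells. Nrap, which links actin to the muscle membrane, had −1.10 and −2.60, and Ankrd1, a stress-responsive sarcomere protein, had −0.98 and −1.09. Without WT proliferative replicate 1, the proliferative values were −0.60 for Actn3, −0.57 for Nrap, −1.81 for Pygm and −1.53 for Pgm5, and all 4 passed. Other members of the list rose in proliferative and fell in differentiated cells. They include Ablim1, an actin-binding LIM protein (0.91 and −0.65), Pdlim1, a PDZ-LIM adaptor (1.14 and −0.55), the splicing factor Rbm20 (0.44, or 0.09 and not passed with the trend removed, and −0.33) and Myof, a membrane repair and fusion protein (0.59 and −0.22). Acta2, smooth muscle actin, had 55745 to 66151 in WT and 63356 to 98184 in Gne KO proliferative libraries, which overlap, and 29611 to 36429 against 19350.2 to 20871 in differentiated libraries, which do not. Its change in proliferative cells (0.48) did not pass with the trend in GC content removed. Cfl1, the actin-severing cofilin, rose in proliferative cells (1.12 ± 0.10, adjusted p = 3.26e-07), with 29774 to 31708 in WT and 53239.8 to 75018 in Gne KO. Ahnak, a very large membrane scaffold, had the highest count of the window at 5 to 10 Mb and did not pass in either state (−0.02 and 0.25).

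**Figure D5:**
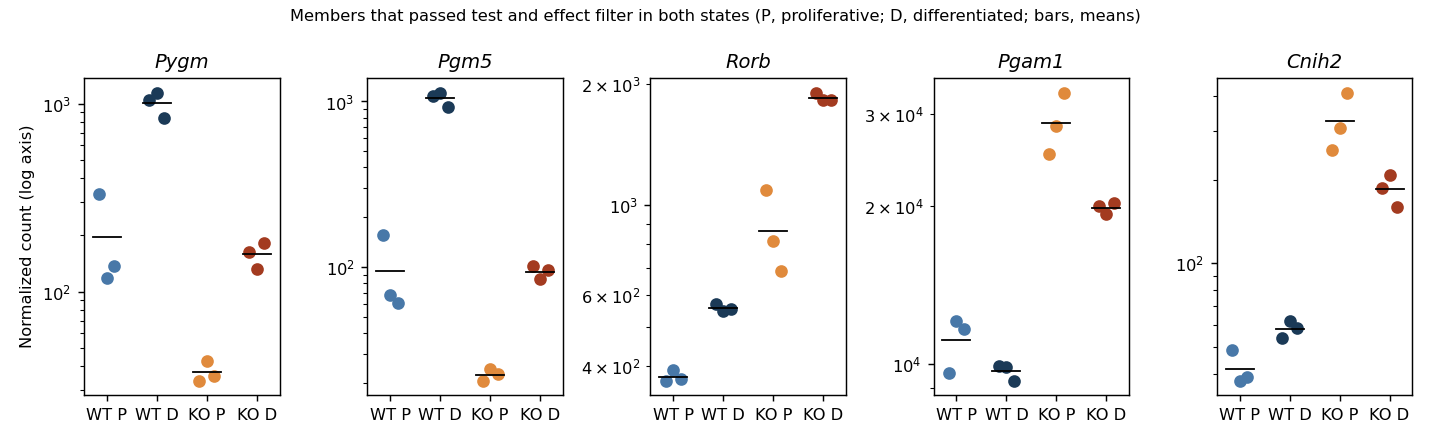
Normalized counts (y axis, log scale) of Pygm, Pgm5, Rorb, Pgam1 and Cnih2 in WT and Gne KO libraries of the proliferative (P) and differentiated (D) states (x axis). Points are single libraries and bars are means of 3; Pygm and Pgm5 are lower and Rorb, Pgam1 and Cnih2 higher in all 3 Gne KO libraries of each state.

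Mitochondrial genes on the chromosome were mostly higher in proliferative cells. Of 22 listed members 20 were higher and none lower (median 0.76), or 90.9% higher against 67.5% of all members, 44.5% of genes on other autosomes and 28.2% of all genes tested. In differentiated cells 3 were higher and 2 lower (median −0.03), or 13.6% and 9.09%, against 33.6% and 9.72% of all members. Sfxn3, a serine carrier of the inner membrane, had 2803, 3300.5 and 3292 in WT and 5683, 7034 and 7574 in Gne KO proliferative libraries (1.11 ± 0.10, adjusted p = 2.6e-07, 0.72 with the trend removed). The respiratory chain subunits Cox8a and Ndufv1 rose by 0.84 and 0.77, which became 0.25 and 0.22 with the trend removed. Aldh18a1, which makes the proline precursor, had 0.03 and did not pass. With the trend removed 18 of the 22 were higher and 1 was lower, at a median of 0.37, close to the 0.40 of all members.

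Cell cycle and repair genes were found in both directions. Of 24 members, 15 were higher and 8 lower in proliferative Gne KO cells (62.5% and 33.3%, against 67.5% and 18% of all members), and 6 were higher and 1 lower in differentiated cells (25% and 4.17%, against 33.6% and 9.72%). The lower side shrank to 4 with the trend removed, with 15 higher, and in differentiated cells 9 were higher and 3 lower. Among the higher ones were Ddb1, part of the ubiquitin ligase that handles ultraviolet damage (1.00), Cdca5, which stabilises cohesin (1.18, or 0.79 with the trend removed), the flap nuclease Fen1 (1.09, or 0.64), and Uhrf2, a reader of modified cytosine (0.63 and, in differentiated cells, 0.55). Among the lower ones, whose transcripts had under 50% GC, were the kinesin Kif20b (−1.80), Smc5 of the SMC5/6 complex (−1.72), the chromatin remodeller Hells (−1.44), the cohesin subunit Smc3 (−0.85) and the tankyrase Tnks2 (−0.50). Kif20b had 2729, 2688 and 2357 in WT and 1049, 639.5 and 599 in Gne KO proliferative libraries. With the trend removed it was −0.73 and Smc5 −0.55, Smc3 was −0.25, while Hells was −0.11 (adjusted p = 0.347) and Tnks2 −0.05 (adjusted p = 0.697). Hells, Smc5 and Kif20b did not pass in differentiated cells.

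Of 10 enzymes of redox, retinoid and amino acid metabolism, 7 were higher and 1 lower in proliferative cells, and 3 and 1 in differentiated cells (70% and 10%, then 30% and 10%, near the shares of all members). Psat1, an enzyme of serine synthesis, went against the chromosome in both states. It had 8148, 10069 and 10658 in WT and 5032, 5066 and 6122 in Gne KO proliferative libraries, and 5233, 5309 and 4654 against 1592, 1559.7 and 1597 in differentiated ones, without overlap (−0.83 ± 0.10 and −1.68 ± 0.11, adjusted p = 6.14e-06 and 3.94e-08). Gldc, of the glycine cleavage system, had 35.5 to 56.3 in WT and 226 to 258 in Gne KO proliferative libraries (2.42 ± 0.17) and had 0.25 in differentiated cells, which did not pass. The glutathione transferases Gstp1 and Gstp2 were higher in both states (0.96 and 2.94, then 0.52 and 1.59), and with the trend removed Gstp1 had 0.39 in proliferative cells. Gstp2 reached the count minimum only in Gne KO (mean raw count 110.3, against 22.7 in WT). They are near-identical neighbours, so reads may be split between them and their values are uncertain. Fth1, the heavy chain of the iron store ferritin, rose in proliferative cells (1.31 ± 0.10), and Anxa1, an anti-inflammatory annexin with the highest count at 20 to 25 Mb, did not pass (−0.16 and 0.14). Fth1, Cfl1 and Pgam1 have processed copies elsewhere in the genome, and their values are uncertain because the treatment of reads with several origins is not stated.

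Pgam1, a phosphoglycerate mutase of glycolysis, was higher by a similar amount in both states. It had 9581, 12044 and 11662 in WT and 25158, 28450.2 and 32883 in Gne KO proliferative libraries, and 9910.1, 9852 and 9288 against 20022, 19331 and 20243 in differentiated ones (1.38 ± 0.10 and 1.04 ± 0.10). All Gne KO libraries lay above all WT libraries. Rorb, a nuclear receptor of the ROR family, had 367, 389.7 and 369.7 in WT and 1092, 814 and 686 in Gne KO proliferative libraries. In differentiated libraries it had 569, 546 and 553 in WT and 1902, 1826 and 1822 in Gne KO (1.18 ± 0.14, or 2.19 with the trend removed, and 1.73 ± 0.12). Cnih2, which escorts AMPA receptors in neurons, had 48.5, 37.7 and 38.8 in WT and 257, 308 and 411 in Gne KO proliferative libraries, and 53.7, 61.6 and 58.2 against 187, 208 and 159 in differentiated ones (2.91 ± 0.23 and 1.65 ± 0.22).

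Of 15 lipid genes, 9 were higher and 2 lower in proliferative cells and 7 higher and 3 lower in differentiated cells. The shares were 60% and 13.3%, near the 67.5% and 18% of all members, and 46.7% and 20%, against 33.6% and 9.72%. The fatty acid desaturases Scd1 and Scd2 rose with differentiation in WT and were lower in differentiated Gne KO cells (−0.73 and −0.58). Scd1 had 23093 to 23777 in WT and 13989.6 to 14251 in Gne KO differentiated libraries. In proliferative cells they had 0.28 and 0.20, calls that ended with scaling by library size alone (0.09 and 0.01). Fads1 and Fads2, which insert double bonds into polyunsaturated fatty acids, were higher in proliferative cells (0.49 and 0.88), and with the trend removed Fads2 had 0.45 and Fads1 did not pass. Vldlr, a lipoprotein and reelin receptor, had 1444 to 1509.7 in WT and 3533 to 3798 in Gne KO differentiated libraries (1.32 ± 0.15). Ch25h, the enzyme that makes a hydroxylated cholesterol with antiviral action, had 122 to 134 in WT and 407 to 513 in Gne KO differentiated libraries (1.77 ± 0.15, adjusted p = 6.99e-07) and was lower in proliferative ones (−0.91, adjusted p = 0.0476), where counts were 11.6 to 36.6.

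Of 13 interferon and NF-kB members, 7 were higher and 4 lower in proliferative and 5 higher and none lower in differentiated cells. Those higher were 53.8% and 38.5%, against 67.5% and 33.6% of all members, and those lower in proliferative cells 30.8%, against 18%. The NF-kB subunits Nfkb2 and Rela rose in proliferative cells (1.00 and 1.07) and did not pass in differentiated cells (0.07 and 0.27), while the kinase Chuk, which activates the pathway, fell by 1.28 in proliferative cells. These proliferative values became 0.52, 0.57 and −0.64 with the trend removed. Il33, an alarmin cytokine kept in the nucleus, moved in opposite directions. It had 667, 1100.2 and 1189 in WT and 405, 577 and 479.9 in Gne KO proliferative libraries (−0.98 ± 0.19, or −0.52 with the trend removed), and 2932, 2977 and 3738 in WT against 10396, 10138 and 9804 in Gne KO differentiated libraries (1.66 ± 0.15). Ifit3, an interferon-induced gene with close paralogs, had 13.9 to 38.9 in WT and 52.7 to 102 in Gne KO proliferative libraries. The kinase Jak2 had −0.43 in proliferative cells, which did not pass with the trend removed.

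Of 20 growth and signalling genes, 14 were higher and 3 lower in proliferative and 8 higher and none lower in differentiated cells. The shares higher were 70% and 40%, close to the 67.5% and 33.6% of all members. Lrp5, a WNT co-receptor, was higher in both (1.09 ± 0.10 and 0.97 ± 0.10), with 2168 to 2390.1 in WT and 4058 to 5510.3 in Gne KO proliferative libraries and 2276 to 2471 against 4499 to 4804 in differentiated ones. The growth factor Vegfb rose by 1.42 and 0.46 and the apoptosis gene Bad by 1.18 and 0.51, and their proliferative values were 0.85 and 0.62 with the trend removed. Trim8, a ubiquitin ligase, had 0.31 in proliferative cells and changed sign with the trend removed (−0.18).

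Of 9 matrix and secreted members, 5 were higher and 4 lower in proliferative and 3 higher and 4 lower in differentiated cells (55.6% and 44.4%, then 33.3% and 44.4%, against 67.5% and 18%, then 33.6% and 9.72% of all members). Ltbp3, which stores latent TGF-beta, was higher by a similar amount in both states (0.98 ± 0.09 and 0.91 ± 0.09), with 9272 to 12206 in Gne KO against 5499.5 to 5640.1 in WT proliferative libraries. Efemp2, a fibulin of elastic fibres, rose by 1.29 (0.86 with the trend removed) and 0.51, and the stromal marker Cd248 by 1.69 in proliferative cells, and it had 0.09 in differentiated cells, with a difference that passed the interaction test. Gfra1, a receptor of glial cell-derived neurotrophic factor, had 1015 to 1285 in WT and 336 to 359 in Gne KO differentiated libraries (−1.77 ± 0.20). The adhesion gene Flrt1 fell by 2.40 and Mamdc2 fell by 3.22 in differentiated cells, both from low counts, and both reached the count minimum only in WT (mean raw counts of 43.7 and 86.2, against 9.83 and 16.7 in Gne KO). The crosslinking enzyme Loxl4 rose by 0.75 in proliferative cells (0.28 with the trend removed) and fell by 0.60 in differentiated cells.

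The other members with the largest changes lay in several windows. Sorcs1, a sorting receptor at 50 to 55 Mb, had 7.77 to 18.3 in WT and 142 to 169 in Gne KO proliferative libraries (3.75 ± 0.31), and 5.76 to 14 and 4.64 to 8.7 in differentiated ones. It is a member only through the Gne KO proliferative libraries, where it is high. Smarca2, an ATPase of the SWI/SNF chromatin remodeller and the member with the highest count at 25 to 30 Mb, had 3583, 3589 and 3517 in WT and 12731, 15291 and 11609.5 in Gne KO proliferative libraries (1.88 ± 0.10, adjusted p = 1.75e-09), and 7009.8 to 8307 against 9386 to 9863 in differentiated ones (0.37 ± 0.09). It was higher with the trend removed as well (1.75). The hydrolase Acy3 rose by 1.88, the channel gene Calhm2 by 1.71 and Psd, an exchange factor for an ARF GTPase, by 1.71 in proliferative cells. Ermp1, a peptidase of the endoplasmic reticulum, had 1498 to 1649 in WT and 3481 to 3809 in Gne KO differentiated libraries (1.19 ± 0.08). Best1, a chloride channel, had 50.2 to 52.8 in WT and 2.61 to 3.71 in Gne KO differentiated libraries (−3.84 ± 0.54), and reached the count minimum only in WT. Neurl1a, a ubiquitin ligase, had 743 to 1015 in WT and 114 to 153 in Gne KO differentiated libraries (−2.76 ± 0.28).

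Lower in proliferative Gne KO cells were also Prkg1, the cyclic GMP-dependent kinase of smooth muscle, with 218 to 262 in WT and 34.4 to 74.1 in Gne KO (−2.18 ± 0.21), the lipase family gene Lipo3 (−1.63), the zinc finger genes Zfp950 (−1.98) and Zfp518a (−1.77), the cilia regulator Rfx3 (−1.73) and Gm9938 (−2.03). Prkg1 and Lipo3 were also lower in differentiated cells (−1.28 and −1.49). Zfp518a was higher there (0.36 ± 0.11), and Zfp950, Rfx3 and Gm9938 did not pass. With the trend removed Zfp950 had −0.47, Zfp518a −0.22, Rfx3 −0.53, Lipo3 −0.54 and Prkg1 −1.28 in proliferative cells, a loss of more than 1.5 times in size.

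The most abundant members of the other windows changed less. Ppp1ca, a catalytic subunit of protein phosphatase, rose by 1.12 in proliferative cells at the start of the chromosome, or 0.58 with the trend removed. Prune2 had −0.06 and 0.35, the podosome scaffold Sh3pxd2a 0.41 and −0.22, and the translation initiation factor Eif3a −0.51 and −0.06, of which the first value of Prune2 and the second values of Sh3pxd2a and Eif3a did not pass, nor did the first value of Eif3a with the trend removed (−0.17). Tkfc, a kinase of dihydroxyacetone, showed the largest change at 10 to 15 Mb (1.19, or 0.73 with the trend removed, and 0.46). Just inside the minimum of 25 lay Snx32 (mean raw count 25.3, log2 fold changes 1.44 and 2.25) and Kank1 (25.9, −1.08 and −1.17), and just outside it Shtn1 (24.9, 0.18 and −0.91) and Pitx3 (24.2, −1.23 and −2.89).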

How the data were processed

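The submitters' processing notes list HTSeq 0.6.1, TopHat2 2.1.1, DESeq2 1.22.1 and cutadapt 1.18 with GRCm38 for a stranded mRNA library. The strand setting of the counting was not given in the sources used here. The authors deposited raw counts per gene and library. A question mark stands for the counts of 6252 of 54838 rows, so the unit was classed as mixed, and limma's voom test replaced a count test. Those rows were left out, and the rows fitted hold raw counts only. Columns with the authors' own fold changes and p-values, and their normalized counts, were not used. Genes with at least 10 counts over 12 libraries were kept (20415), scaled by TMM in base R and fitted in 4 groups (limma 3.58.1, R 4.3.3), with p-values adjusted by Benjamini-Hochberg over all genes tested. A gene passed at an adjusted p under 0.05. The effect filter, taken from the study's methods, required a mean of 5 or more normalized counts and a log2 fold change that exceeded, in either direction, the sum of 0.9 and the ratio of 7.5 to the square root of the mean. Normalized counts are per mean effective library size, and fold changes are Gne KO minus WT. The median SE of a member's log2 fold change was 0.11. GC content and length are of the longest transcript in the GENCODE annotation of GRCm38, and a natural spline of 5 degrees of freedom in each was removed per library before limma's trend fit. The main fit was run on simulated counts with the same spread setting for all genes and no trend in GC content or length. The fit with the trend removed was not simulated.

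Members and gene lists were chosen with earlier results of these data known. Named were up to 10 members with the largest called changes in each direction and state, the most abundant and the most changed member of each window, the 4 most abundant of each list, the 2 on each side of the count minimum, and Gne. An item that the rule names is not reported here. Some further list members were named after their values were seen.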

Additional observations from a re-analysis of the deposited data

Results flagged for a closer look

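The genotype effect differed between the proliferative and differentiated states in an interaction test (limma, adjusted p under 0.05) for 280 members. Among the named members, those that also met the effect filter are given here by the log2 fold change in differentiated cells minus that in proliferative cells, with n = 3 libraries per group. Sorcs1 and Best1 reached the count minimum in 1 genotype only.

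The difference was negative for Sorcs1 (−3.99), Best1 (−3.77), Gldc (−2.17), Neurl1a (−2.10), Cd248 (−1.60), Ablim1 (−1.56), Smarca2 (−1.51), Pgm5 (−1.48), Acy3 (−1.47), Loxl4 (−1.35), Actn3 (−1.33), Fads2 (−1.28), Acta2 (−1.23), Gfra1 (−1.19), Fth1 (−1.11), Scd1 (−1.01), Cfl1 (−0.99) and Ppp1ca (−0.99). It was positive for Ermp1 (1.06), Vldlr (1.09), Kif20b (1.47), Rfx3 (1.71), Hells (1.81), Gm9938 (1.85), Smc5 (1.85), Zfp518a (2.13), Zfp950 (2.51), Il33 (2.64) and Ch25h (2.67). Across genes the difference fell with GC content, with a Spearman coefficient of −0.47 over 420 members and −0.50 over 10652 genes of other autosomes. With the GC and length trend removed, the interaction was more negative for 171 of the 422 members and more positive for 64. On the other autosomes 27.4% and 21.1% of genes were so. The single differences listed above are those of the main fit and are not given here with the trend removed.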

How the results depend on the processing

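The chromosome-wide difference kept its sign under every alternative run. In proliferative cells it was 0.44 and moved to 0.34 with the GC and length trend removed (0.34 also with the replicate block) and to 0.50 with a reference without the count minimum. In differentiated cells it was 0.18, and moved to 0.17 with the trend removed (0.17 also with the replicate block), 0.22 with the mean in place of the median, 0.17 with a minimum of 10 raw counts and 0.20 with a reference without the count minimum. Leaving out 1 library gave 0.42 to 0.45 and 0.16 to 0.19. Windows above the other autosomes numbered 10 of 13 (76.9%) in proliferative cells. The share was lower at other window settings. It was 14 of 22 (63.6%) at 2.5 Mb and 4 of 7 (57.1%) at 10 Mb. With windows offset by 2.5 Mb it was 7 of 12 (58.3%). In differentiated cells such windows numbered 12 of 13, then 21 of 22, 7 of 7 and 12 of 12. Shares of the other autosomes' own windows were not computed at these other settings. With the trend removed, 5 Mb windows above numbered 12 of 13 in proliferative and 11 of 13 in differentiated cells.

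Fitted on only the 6 differentiated libraries, 296 members passed in that state, 232 higher and 64 lower. In that fit 30.9% of genes on other autosomes were higher and 28.2% lower. Leaving out 1 library gave 131 to 242 passed there, 100 to 191 higher and 25 to 51 lower, with 25 lower without WT differentiated replicate 2 and 26 without Gne KO differentiated replicate 3. In proliferative cells it gave 346 to 365 passed, 271 to 284 higher and 66 to 82 lower, and 247 to 316 for the interaction. Scaling by library size alone moved the median of the other autosomes in proliferative cells from 0.17 to −0.01, with 255 members higher and 89 lower.

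Same-numbered libraries did not deviate together (correlation over 0.1 in 2 of 18 pairs), so the numbers were not taken as pairing. With the replicate block, 284 members were higher and 75 lower in proliferative cells, 132 and 39 in differentiated cells, and 273 passed the interaction. Of 104 named changes that passed, 82 kept call and direction under every alternative. Trim8 (−0.18) changed sign with the trend removed.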
